A study of Mus musculus with 9 samples.

Results

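The comparison was between a pair of stable lines of B16.SIY mouse melanoma cells, each carrying a different short hairpin RNA (shRNA) against Decr2: the line labelled shRNA2 against the line labelled shRNA1. It took 6 of the 9 libraries of the series, 3 per line, chosen by their sample labels, and all 10762 genes of the deposited table. B16.SIY is of C57BL/6 origin and expresses a fusion of dsRED, a red fluorescent protein, with SIY, a model antigen peptide. Every group, the control included, was infected with a lentiviral hairpin and selected with puromycin. The 3 libraries of the line with a control hairpin gave a reference level. They also entered the estimate of each gene's spread. Every SE and p between the lines rests on that estimate unless stated otherwise. The study's design text names only the comparison of the Decr2 hairpins with the control. Although the title of the series mentions tumors, the sample labels describe a line grown in culture, and the libraries are treated as that. The labels give 1 stable line per hairpin, so a difference between the hairpins and a difference between the lines cannot be told apart. The labels do not say whether replicates 0, 1 and 2 came from separate cultures; the tests therefore see only the spread among these libraries, and that spread may be technical.

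Decr2 encodes a peroxisomal enzyme, the 2,4-dienoyl-CoA reductase, which removes double bonds that stand in the way when polyunsaturated fatty acids are shortened by beta-oxidation. An shRNA is processed by Dicer into a short duplex whose guide strand directs the Argonaute complex to matching messenger RNA. Different hairpins against 1 gene differ in how strongly they lower it, and each guide can also act on other transcripts that match its seed.

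All values below are the deposited log2 expression values, and a difference is the mean of the shRNA2 libraries minus the mean of the shRNA1 libraries on that log2 scale. A difference is called where the Benjamini-Hochberg adjusted p of limma over all 10762 genes is under 0.05. Library totals after undoing the logarithm ran from 969465 to 1045849, and the number of reads is unknown. Library medians ran from 5.35 to 5.38. The libraries numbered 0 stood apart: shRNA1 replicate 0 correlated with shRNA2 replicate 0 across genes at 0.984, and with shRNA1 replicate 1 at 0.966. Deviations from the group means correlated between the same-numbered libraries of the lines at 0.644, 0.126 and 0.505 for numbers 0, 1 and 2. They also correlated at 0.531 between shRNA1 replicate 1 and shRNA2 replicate 2, and at 0.353 between shRNA1 replicate 2 and shRNA2 replicate 1. Number 0 thus stood apart, while pairing within numbers 1 and 2 was not shown. Calls with the number as a block are given where they differ, with that limit. Of 10 melanocyte markers, all 10 were listed and none was called between the lines (1 at an unadjusted p under 0.05); their summed linear level ran from 13553 to 19499 in shRNA1 and from 13453 to 23497 in shRNA2, highest in each line's replicate 0. Of 46 markers of 7 other cell types, 5 were listed (Plvap, Postn, Pdgfrb, Lck and Col1a1), and no call was made among them (1 at an unadjusted p under 0.05). In RNA from whole cultures, fewer cells of a kind and less RNA per cell cannot be told apart.

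The target itself parted the lines. Decr2 (chromosome 17, 26081208 to 26090337, minus strand of GRCm38 in GENCODE M21) stood at 3.96, 4.10 and 3.71 in control replicates 0, 1 and 2, at 2.87, 2.51 and 3.18 in shRNA1 and at 0.84, 1.18 and 1.55 in shRNA2. The 3 groups did not overlap, with control highest and shRNA2 lowest. Decr2 was lower in shRNA2 than in shRNA1 by a difference of -1.66 ± 0.23 (SE, n = 3 each; adjusted p = 0.0233). The shRNA2 level was 31.6% of the shRNA1 level (95% confidence interval 22.1% to 45.1%), and the lines stood at 47.6% and 15.0% of the control level. The adjusted p was 0.116 when the spread was estimated from the 6 hairpin libraries alone, and it was above 0.05 in 7 of the 9 fits that left out 1 library (all but those without control replicate 0 and without shRNA1 replicate 0), reaching 0.137 without shRNA2 replicate 1. By deposited value, Decr2 was at percentile 5.4 of all genes over the hairpin libraries, and it came 18th in order of p. The unit of these values, and so any correction for gene length, is not given in the sources used here.

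**Figure D1:**
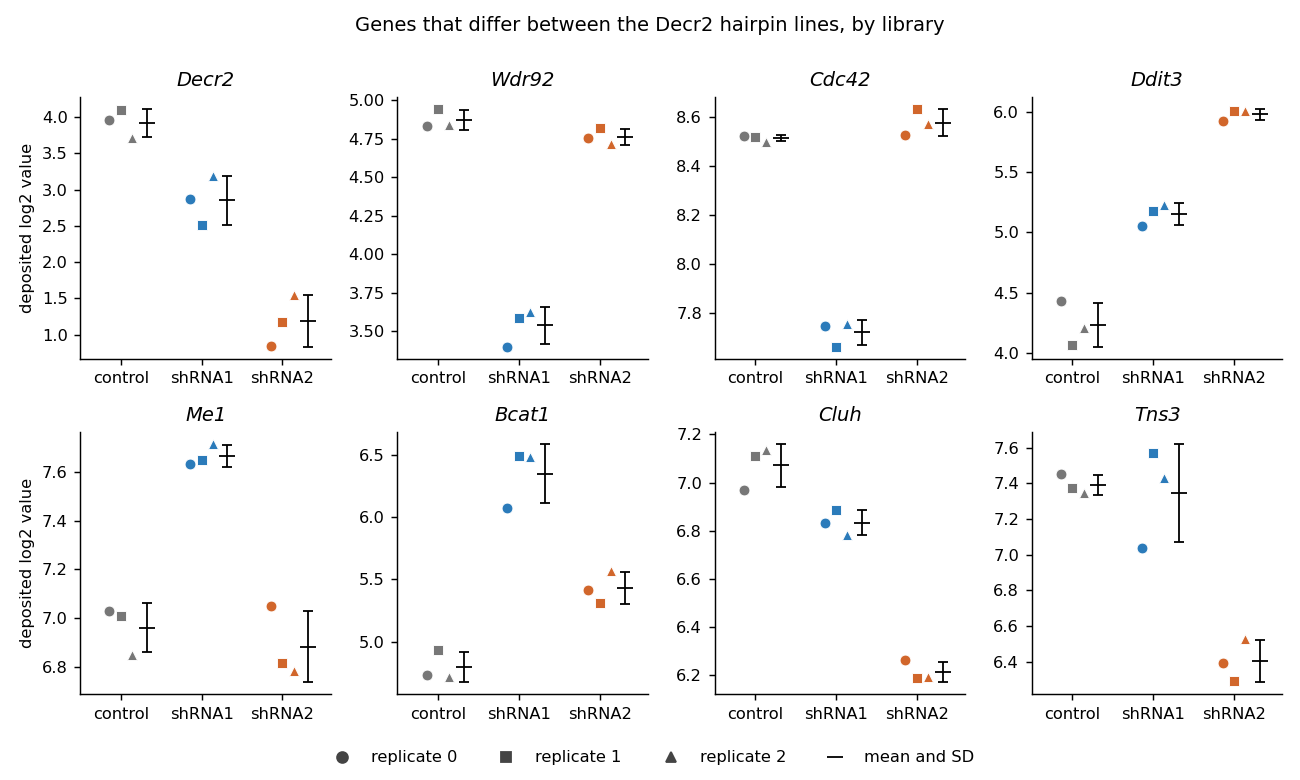
Deposited log2 value (vertical axis, a separate range per panel) in the 9 libraries for 8 genes, with groups on the horizontal axis, symbols for replicate number, and a bar for mean ± SD (n = 3). In every panel the shRNA1 and shRNA2 points do not overlap; Wdr92, Cdc42 and Me1 have shRNA2 near the control level, while Cluh and Tns3 have shRNA1 nearer to it.

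Beside Decr2, few genes separated the lines past the test. Of 10762 genes, 49 were called (0.455%), 24 higher in shRNA2 (0.223%) and 25 lower (0.232%), and 1081 had an unadjusted p under 0.05. In all 49 the 3 shRNA2 libraries lay wholly above or below the 3 shRNA1 libraries, and the differences within replicate numbers 0, 1 and 2 had the same sign. Both traits largely follow from a call made on these same libraries and are not separate evidence. Among all genes, 1550 (14.4%) were non-overlapping and 37.7% had the same sign in all 3 numbers. With the replicate number as a block, 201 genes were called (1.87%), 89 higher and 112 lower, including all 49. The counts moved with the libraries used: 955 genes (8.87%), again with all 49, were called without the libraries numbered 0. That fit rests on replicates 1 and 2 of each group, with 3 residual degrees of freedom per gene against 6 with all 9 libraries. From the hairpin libraries alone, 6 genes were called, and 118 with the block. Leaving out control replicate 0, 1 or 2 gave 49, 15 and 13 called genes, leaving out those of shRNA1 gave 94, 3 and 4, and leaving out those of shRNA2 gave 17, 4 and 3. Wdr92, Cdc42 and the predicted gene Gm14698 were called in each of these 9 fits, and they were the only genes called without shRNA1 replicate 1 or without shRNA2 replicate 2; every other of the 49 calls was lost without either of these libraries.

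**Figure D2:**
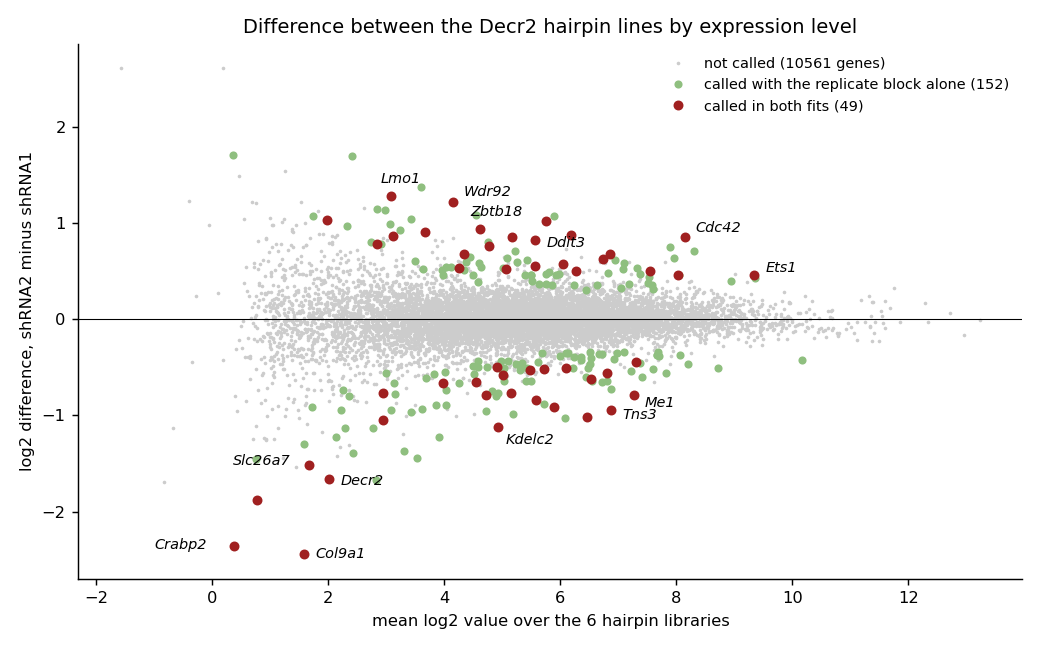
Mean log2 value over the 6 hairpin libraries (horizontal axis) against the log2 difference, shRNA2 minus shRNA1 (vertical axis), 1 point per gene. Red points are the 49 genes called in both fits, green points the 152 called with the replicate block alone, and grey points the 10561 others; the differences of largest size among the red points, Col9a1 at -2.45 and Crabp2 at -2.36, are those of low genes.

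**Figure D3:**
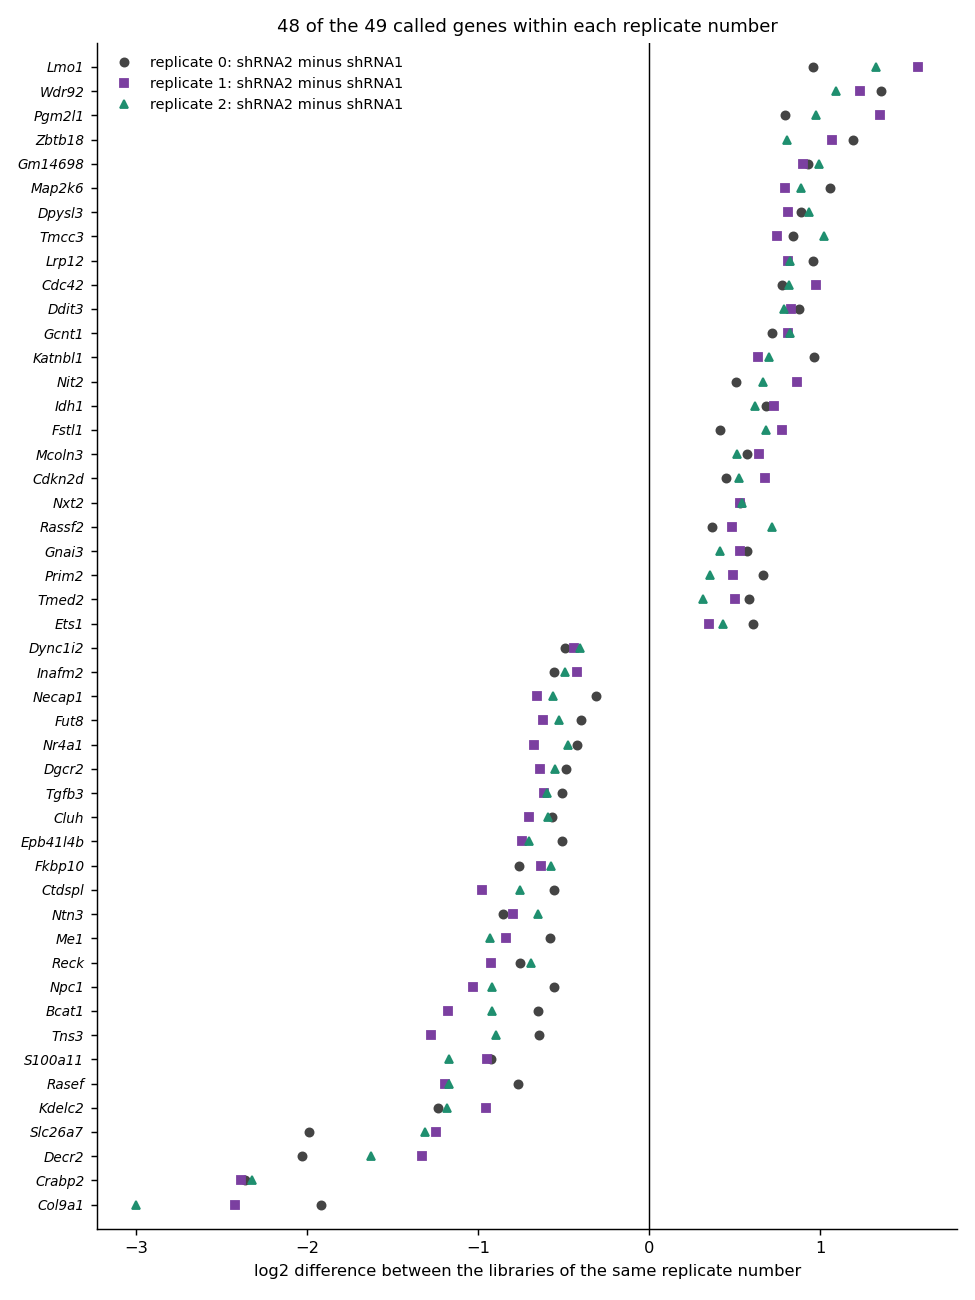
Log2 difference between the shRNA2 and shRNA1 libraries of the same replicate number (horizontal axis) for 48 of the 49 called genes (vertical axis), with 1 symbol per number. All 3 symbols of each gene fall on 1 side of 0, which largely follows from the selection of these genes by the test.

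Most genes higher in shRNA2 were genes that the shRNA1 line had below control. Of the 24, 20 were also called lower in shRNA1 than in control (5.49% of all genes were), and 18 of those 20 were not called between shRNA2 and control. These contrasts use the same hairpin libraries, so the counts describe where the control level lay and are not separate evidence. Wdr92 and Cdc42 had the smallest p-values of all genes. Wdr92 encodes a WD-repeat protein that works with the R2TP cochaperone complex (chromosome 11, 17182107 to 17233796, plus strand). Wdr92 stood at 3.40, 3.59 and 3.62 in shRNA1, at 4.75, 4.82 and 4.72 in shRNA2 and at 4.83, 4.95 and 4.84 in control. All shRNA1 libraries were below the other 6, which lay close together. The difference was 1.23 ± 0.09 (SE, n = 3 each; adjusted p = 0.00118), a 2.34-fold higher level in shRNA2. Its exons overlap those of Ppp3r1 on the same strand and of Pno1 on the opposite one, and neither was called, with differences of 0.13 (adjusted p = 0.643) and 0.31 (adjusted p = 0.196).

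Cdc42, a small GTPase of cell polarity and actin protrusion (chromosome 4, 137319696 to 137357720, minus strand), was low in the shRNA1 line only. Its values were 7.75, 7.66 and 7.75 in shRNA1, 8.52, 8.63 and 8.57 in shRNA2 and 8.52, 8.52 and 8.50 in control. Every shRNA1 library was below the other 6, and the ranges of shRNA2 and control lay side by side. The difference was 0.86 ± 0.06 (SE, n = 3 each; adjusted p = 0.00118), and against control the shRNA1 line differed by -0.79 (adjusted p = 0.000591) and the shRNA2 line by 0.06 (adjusted p = 0.56).

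Map2k6, Gnai3, Ets1, Rassf2 and Lrp12 were likewise called below control in shRNA1 and not called between shRNA2 and control. Map2k6, the kinase upstream of p38, stood at 3.25, 3.15 and 3.23 in shRNA1 and at 4.31, 3.94 and 4.12 in shRNA2, a difference of 0.91 ± 0.11 (SE, n = 3 each; adjusted p = 0.0184). Gnai3, an inhibitory G protein alpha subunit, differed by 0.50 ± 0.08 (SE, n = 3 each; adjusted p = 0.0463). Ets1, a transcription factor of the ETS family, was at 8.998, 9.164 and 9.176 in shRNA1 and 9.602, 9.514 and 9.605 in shRNA2, so that the lines did not overlap although the difference was only 0.46 ± 0.07 (SE, n = 3 each; adjusted p = 0.0406). Rassf2, a Ras-association domain protein, differed by 0.52, and Lrp12, of the low-density lipoprotein receptor family, by 0.86 ± 0.09 (SE, n = 3 each; adjusted p = 0.0121). Control means of Map2k6, Gnai3, Ets1 and Lrp12 were 4.30, 7.92, 9.64 and 5.67, each above the means of both lines.

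Tmed2, Gcnt1, Mcoln3, Pgm2l1, Idh1 and Nit2 had the same calls. Tmed2, a p24 cargo receptor of the early secretory pathway, was at 7.69, 7.81 and 7.88 in shRNA1 and 8.27, 8.31 and 8.20 in shRNA2 against 8.58, 8.43 and 8.43 in control, a difference of 0.47 ± 0.08 (SE, n = 3 each; adjusted p = 0.0463). Gcnt1, which branches core 2 O-glycans, differed by 0.78, and Mcoln3, an endolysosomal cation channel, by 0.57 ± 0.09 (SE, n = 3 each; adjusted p = 0.0406). Pgm2l1, which makes glucose 1,6-bisphosphate, was at 1.60, 1.33 and 1.43 in shRNA1 and 2.39, 2.68 and 2.40 in shRNA2, a difference of 1.04 ± 0.17 (SE, n = 3 each; adjusted p = 0.0406). Its control values of 2.79, 3.21 and 3.02 were above all libraries of both lines, as those of Tmed2 were, but the shRNA2 line was not called against them (adjusted p = 0.0754 for Pgm2l1 and 0.0962 for Tmed2). Idh1, the cytosolic and peroxisomal isocitrate dehydrogenase that yields NADPH, was at 6.47, 6.52 and 6.55 in shRNA1, 7.15, 7.24 and 7.17 in shRNA2 and 7.10, 6.86 and 6.80 in control, so that control lay between the lines; the difference was 0.68 ± 0.09 (SE, n = 3 each; adjusted p = 0.0185). Nit2, an omega-amidase of glutamine and asparagine breakdown, differed by 0.68; its exons overlap those of Tomm70a on the opposite strand, which was not called (difference 0.02, adjusted p = 0.979).

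Others with these calls were Cdkn2d, an inhibitor of the cyclin D kinases, with a difference of 0.55 ± 0.09 (SE, n = 3 each; adjusted p = 0.0378), Prim2, the large subunit of DNA primase, with 0.50 ± 0.09 (SE, n = 3 each; adjusted p = 0.0486), and Katnbl1, a regulator of the microtubule-severing enzyme katanin, with 0.77 ± 0.12 (SE, n = 3 each; adjusted p = 0.035). In Cdkn2d the values were 5.39, 5.19 and 5.27 in shRNA1 and 5.84, 5.86 and 5.80 in shRNA2. Lmo1, a LIM-only transcription cofactor, had the largest difference of the group, 1.28 ± 0.19 (SE, n = 3 each; adjusted p = 0.0278), with 2.42, 2.48 and 2.43 in shRNA1 and 3.38, 4.06 and 3.75 in shRNA2. Its control values of 3.08, 3.13 and 3.53 lay above all shRNA1 libraries and overlapped those of shRNA2. Tmcc3, a transmembrane coiled-coil protein, differed by 0.87 (adjusted p = 0.0215).

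Other genes higher in shRNA2 had the control level between the lines or near shRNA1. Zbtb18, a zinc finger repressor, was at 5.10, 5.22 and 5.42 in shRNA1, 6.29, 6.29 and 6.23 in shRNA2 and 6.05, 5.66 and 5.56 in control. It was called lower than control in shRNA1 (-0.51, adjusted p = 0.0361), higher than control in shRNA2 (0.51, adjusted p = 0.0355) and different between the lines by 1.02 ± 0.13 (SE, n = 3 each; adjusted p = 0.0186). Gm14698 had the same order, with differences of -0.32 and 0.62 from control and 0.94 ± 0.08 (SE, n = 3 each; adjusted p = 0.00254) between the lines. In 3 genes the shRNA2 line alone was called above control (7.27% of all genes were called higher there): Dpysl3, a cytoskeletal adaptor, Fstl1, a secreted follistatin-like glycoprotein, and Nxt2, a partner of the mRNA export receptor. Dpysl3 stood at 5.83, 5.68 and 5.74 in shRNA1 and 6.72, 6.49 and 6.67 in shRNA2, a difference of 0.88 ± 0.14 (SE, n = 3 each; adjusted p = 0.0406). Fstl1 differed by 0.63 ± 0.09 (SE, n = 3 each; adjusted p = 0.0318) and Nxt2 by 0.53 ± 0.08 (SE, n = 3 each; adjusted p = 0.0299).

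Ddit3, which encodes CHOP, a transcription factor of the integrated stress response, was the 1 gene of the 24 called above control in both lines. It stood at 4.43, 4.07 and 4.21 in control, 5.06, 5.18 and 5.23 in shRNA1 and 5.93, 6.01 and 6.01 in shRNA2 (chromosome 10, 127290774 to 127296288, plus strand). The 3 groups did not overlap, and shRNA2 was highest. The lines were above control by 0.92 (adjusted p = 0.00187) and 1.75 (adjusted p = 8.3e-05), and differed from each other by 0.83 ± 0.10 (SE, n = 3 each; adjusted p = 0.0167). Its exons overlap those of Mars on the opposite strand, which differed by -0.01 (adjusted p = 0.990). The RefSeq promoter of Ddit3 (GRCm38.p6, chr10:127290543-127290842, plus strand) is shown because it is 1 of 7 promoters of called genes with an AP-1 motif, described with Bcat1 and Me1 below; capitals mark the motif, whose first base is at -242 with the start site counted as 0.
Ddit3: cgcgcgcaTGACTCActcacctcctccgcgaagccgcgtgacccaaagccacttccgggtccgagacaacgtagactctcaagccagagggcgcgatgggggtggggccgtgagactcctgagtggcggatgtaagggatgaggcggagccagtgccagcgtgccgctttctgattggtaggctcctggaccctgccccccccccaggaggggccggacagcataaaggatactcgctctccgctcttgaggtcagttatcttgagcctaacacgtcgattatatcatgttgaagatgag

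**Figure D4:**
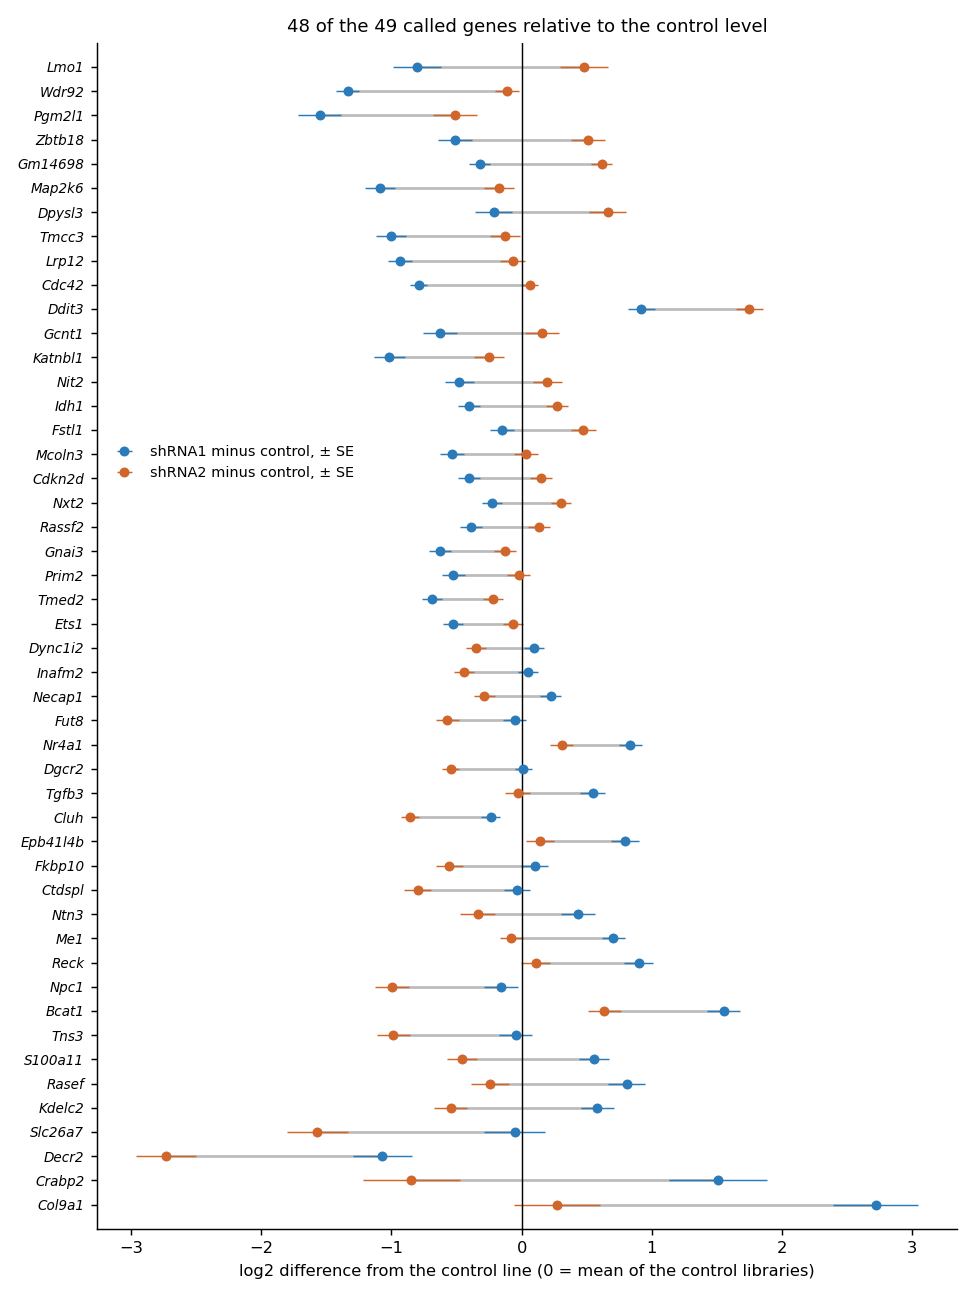
Log2 difference of each Decr2 hairpin line from the control line (horizontal axis, mean ± SE, n = 3 libraries per group) for 48 of the 49 called genes (vertical axis, ordered by the difference between the lines). The upper 24 genes are higher in shRNA2; in 20 of them the shRNA1 point is called below 0. The lower 24 are from the 25 genes lower in shRNA2, of which 11 were called below control in shRNA2 only and 9 above control in shRNA1 only.

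Among the 25 genes lower in shRNA2, the position of control was divided. In 11 the shRNA2 line alone was called below control, in 9 the shRNA1 line alone was called above it, and 2 were called on opposite sides; Bcat1 was above control in both lines, Decr2 below in both, and Ntn3 called in neither. Over all genes 5.67% were called below control in shRNA2 and 6.92% above it in shRNA1.

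The 11 genes called below control in shRNA2 and not called between shRNA1 and control included Cluh, Tns3 and Npc1. Cluh, which binds messenger RNAs of nuclear-encoded mitochondrial proteins (chromosome 11, 74649495 to 74670847, plus strand), stood at 6.83, 6.89 and 6.78 in shRNA1 and 6.26, 6.19 and 6.19 in shRNA2, a difference of -0.62 ± 0.07 (SE, n = 3 each; adjusted p = 0.0121). Its control values of 6.97, 7.11 and 7.13 were above every library of both lines, although shRNA1 was not called against them (-0.24, adjusted p = 0.0592). Tns3, a tensin of focal adhesions, was at 7.04, 7.57 and 7.43 in shRNA1 and 6.39, 6.29 and 6.53 in shRNA2, against 7.45, 7.37 and 7.35 in control. The shRNA1 libraries straddled the control ones and all shRNA2 libraries were lower, with a difference of -0.94 ± 0.13 (SE, n = 3 each; adjusted p = 0.0233). Npc1, which moves cholesterol out of lysosomes, was at 6.04, 5.97 and 5.99 in shRNA1 and 5.48, 4.94 and 5.07 in shRNA2, a difference of -0.84 ± 0.13 (SE, n = 3 each; adjusted p = 0.0377). Its exons overlap those of Rmc1 on the opposite strand, which differed by 0.12 (adjusted p = 0.938).

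Slc26a7, an anion exchanger, had the largest difference of this group, -1.52 ± 0.24 (SE, n = 3 each; adjusted p = 0.0378), with 2.91, 2.34 and 2.04 in shRNA1, 0.92, 1.10 and 0.73 in shRNA2 and 2.65, 2.41 and 2.38 in control. The shRNA2 libraries were low, and those of the other 2 groups overlapped. Ctdspl, a small phosphatase of the C-terminal domain family, differed by -0.76 ± 0.10 (SE, n = 3 each; adjusted p = 0.0215) and Dgcr2, a membrane adhesion receptor, by -0.56 ± 0.07 (SE, n = 3 each; adjusted p = 0.0156). Fkbp10, a prolyl isomerase that helps collagen fold, differed by -0.66, and Fut8, the core fucosyltransferase of N-glycans, by -0.52 ± 0.09 (SE, n = 3 each; adjusted p = 0.0477). Necap1, which acts in clathrin-mediated endocytosis, differed by -0.51 ± 0.08 (SE, n = 3 each; adjusted p = 0.0378), and Dync1i2, an intermediate chain of cytoplasmic dynein, by -0.45 ± 0.08 (SE, n = 3 each; adjusted p = 0.0463). Inafm2 differed by -0.49 (adjusted p = 0.0404).

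Among the genes called above control in shRNA1 and not called between shRNA2 and control, Me1 had the smallest p between the lines. Me1, the cytosolic malic enzyme that makes NADPH for lipid synthesis (chromosome 9, 86581371 to 86695953, minus strand), was at 7.63, 7.65 and 7.72 in shRNA1, 7.05, 6.81 and 6.78 in shRNA2 and 7.03, 7.01 and 6.85 in control. Every shRNA1 library was above the other 6, and the shRNA2 and control libraries overlapped. The difference was -0.78 ± 0.09 (SE, n = 3 each; adjusted p = 0.0121). Reck, a membrane-anchored inhibitor of matrix metalloproteinases, was at 5.08, 5.14 and 5.10 in shRNA1 and 4.32, 4.22 and 4.41 in shRNA2, a difference of -0.79 ± 0.11 (SE, n = 3 each; adjusted p = 0.0255). Tgfb3, a cytokine of the transforming growth factor beta family, differed by -0.58 ± 0.10 (SE, n = 3 each; adjusted p = 0.0463). Nr4a1, an orphan nuclear receptor and immediate early gene, was at 5.73, 5.78 and 5.71 in shRNA1, 5.30, 5.11 and 5.23 in shRNA2 and 4.77, 4.92 and 5.03 in control, a difference of -0.53 ± 0.09 (SE, n = 3 each; adjusted p = 0.0477), and its shRNA2 line narrowly missed a call against control (adjusted p = 0.0518). Rasef, a Rab-related GTPase with EF hands, and Epb41l4b, a FERM domain protein, differed by -1.05 and -0.65.

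Among the called genes, the differences of largest size between the lines were those of genes with low deposited values. Col9a1, a chain of collagen IX, was at 2.15, 3.08 and 3.20 in shRNA1, 0.24, 0.65 and 0.20 in shRNA2 and 0.33, -0.29 and 0.23 in control, a difference of -2.45 ± 0.33 (SE, n = 3 each; adjusted p = 0.0222). Crabp2, which carries retinoic acid to its nuclear receptor, was at 1.92, 1.58 and 1.17 in shRNA1 and -0.45, -0.80 and -1.16 in shRNA2, a difference of -2.36 ± 0.37 (SE, n = 3 each; adjusted p = 0.0404). In both genes the lines did not overlap, and control lay between the lines for Crabp2 (mean 0.04). The depth behind such low values is unknown. A filter on the lowest 25% of genes leaves out 13 of the 49, among them these genes, Decr2, Slc26a7, Pgm2l1, Lmo1 and Map2k6, and the other 36 were all called under it.

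Kdelc2, an endoplasmic reticulum enzyme that glucosylates proteins, and S100a11, a calcium-binding protein, were called on opposite sides of control. S100a11 was at 6.77, 6.97 and 7.14 in shRNA1, 5.84, 6.02 and 5.97 in shRNA2 and 6.59, 6.28 and 6.33 in control, so that control lay between lines that did not overlap. The difference was -1.02 ± 0.12 (SE, n = 3 each; adjusted p = 0.0121) for S100a11 and -1.12 ± 0.13 (SE, n = 3 each; adjusted p = 0.0121) for Kdelc2. Bcat1, the cytosolic branched-chain amino acid transaminase (chromosome 6, 144993835 to 145076184, minus strand), was at 4.74, 4.94 and 4.72 in control, 6.07, 6.49 and 6.48 in shRNA1 and 5.42, 5.31 and 5.57 in shRNA2. The 3 groups did not overlap. Control was lowest, as it was for Ddit3, but the lines had changed places and shRNA1 was highest. The lines were above control by 1.55 (adjusted p = 0.000591) and 0.64 (adjusted p = 0.0153), with a difference of -0.92 ± 0.13 (SE, n = 3 each; adjusted p = 0.0241). Ntn3, a netrin, differed by -0.77 ± 0.13 (SE, n = 3 each; adjusted p = 0.0498), and its same-strand neighbour with overlapping exons, Tbc1d24, differed by 0.05 (adjusted p = 0.967).

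Of the 49 called genes, 35 had a promoter in the RefSeq table (250 bases before to 50 after the start site, GRCm38.p6). The AP-1 motif TGANTCA, searched on both strands, was in 7 of the 35 (20%), against 8.97% of the 27025 genes of the table. Its holders were 4 genes higher in shRNA2 (Ddit3, Lmo1, Tmcc3 and Map2k6) and 3 lower (Bcat1, Me1 and S100a11), so the motif did not go with 1 direction. The E-box CACGTG was in 4 (11.4%, against 8.09%). The amino acid response element TGATGNAA was in 1, Fut8 (2.86%, against 4.51%), the cyclic AMP element TGACGTCA in 1, Cdc42 (2.03% of all), the sterol element TCACNCCAC in 1, Gnai3 (1.44% of all), and the interferon element (TTTC, 2 bases of any kind, TTTC) in 1, Zbtb18 (3.99% of all). No match was found to the heat shock element (GAA, 2 bases, TTC, 2 bases, GAA) or to the endoplasmic reticulum stress element (CCAAT, 9 bases, CCACG). These are letter matches in a short window and no test was made of them. The 27025 genes include ones that the deposited table does not list, and the share among listed genes was not computed. A gene with several start sites was counted if any of them matched. The promoters of Bcat1 (chr6:145076108-145076407, minus strand) and Me1 (chr9:86695865-86696164, minus strand), each for 1 of 2 start sites in the table, are shown because their genes were lower in shRNA2 while Ddit3, which holds the same motif, was higher; capitals mark it, with its first base at -24 and -6 from the start.
Bcat1: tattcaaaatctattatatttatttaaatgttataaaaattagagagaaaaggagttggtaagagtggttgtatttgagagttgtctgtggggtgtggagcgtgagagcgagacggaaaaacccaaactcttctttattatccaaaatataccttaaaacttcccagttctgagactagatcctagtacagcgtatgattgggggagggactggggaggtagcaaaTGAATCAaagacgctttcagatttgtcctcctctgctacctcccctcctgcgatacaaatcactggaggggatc
Me1: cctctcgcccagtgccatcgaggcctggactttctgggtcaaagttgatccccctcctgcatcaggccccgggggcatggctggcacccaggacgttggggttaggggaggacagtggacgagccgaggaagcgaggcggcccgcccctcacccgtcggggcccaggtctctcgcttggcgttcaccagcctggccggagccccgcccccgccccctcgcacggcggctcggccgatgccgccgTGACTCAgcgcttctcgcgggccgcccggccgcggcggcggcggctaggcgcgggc

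Of the 201 genes called with the replicate block, 169 were non-overlapping between the lines. In the others the libraries of the lines interleaved, while the differences within a number had 1 sign. That shared sign largely follows from a call made on these same differences. Hk1, the first enzyme of glycolysis, was at 7.70, 7.05 and 6.94 in shRNA1 and 6.96, 6.22 and 6.33 in shRNA2, a difference of -0.72 (adjusted p = 0.344, 0.00838 with the block). Replicate 0 was the highest of each line, so that the lines overlapped, and shRNA2 was lower within every number. Nr2f2, an orphan nuclear receptor, was at 5.81, 7.01 and 7.05 in shRNA1 and 6.44, 7.59 and 7.70 in shRNA2, a difference of 0.62 (adjusted p = 0.736, 0.0124 with the block), and there replicate 0 was the lowest of each line. Itgb3, the integrin beta 3 subunit, was at 7.73, 6.45 and 6.42 in shRNA1 and 7.25, 5.65 and 5.78 in shRNA2 (difference -0.64, adjusted p = 0.765, 0.0472 with the block).

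For the other genes named from this fit, the adjusted p is given without and with the block. Higher in shRNA2 with the block were Kctd12 by 1.08 (0.0715 and 0.0448), Mtdh by 0.75 (0.134 and 0.018), the RNA-binding protein gene Celf2 by 0.71 (0.159 and 0.018), the gasdermin Gsdmc by 0.64 (0.216 and 0.0219) and the homeobox gene Hoxb9 by 0.62 (0.697 and 0.00981). Differing in the other direction with the block were the myelin protein gene Pmp22 by -1.02 (0.0707 and 0.0456), the calcium-regulated factor gene Nfatc2 by -0.88 (0.249 and 0.0274), Grina by -0.65 (0.184 and 0.0189) and the endosomal chloride transporter gene Clcn5 by -0.64 (0.511 and 0.0412). The actin-associated myosin Myo18a (-0.34) and the elongation factor partner Eaf1 (-0.50) missed the test without the block (adjusted p = 0.054 and 0.054) and passed with it (0.0316 and 0.02).

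Of 32 gene lists read against these differences, 11 held a called gene and none held more than 2. Where a list held no called gene in limma's test, the number of its genes with an unadjusted p under 0.05, which 10% of all genes had, is given. The list medians are set beside the median of all genes, which was 0.00. Of all 10762 genes, 0.455% were called and 5519 had a positive difference. In the integrated stress response list, 1 of 37 measured genes was called, Ddit3, and 31 of 37 differences were positive, with a median of 0.14. By replicate number the list median was 0.27 in number 0, 0.07 in number 1 and 0.05 in number 2. Trib3, a pseudokinase target of CHOP, was at 5.79, 6.92 and 6.88 in shRNA1 and 6.90, 7.38 and 7.27 in shRNA2, so that the lines overlapped, with a difference of 0.66 (adjusted p = 0.453). Atf4 differed by 0.16 (adjusted p = 0.905) and Asns, asparagine synthetase, by 0.21 (adjusted p = 0.935); without shRNA1 replicate 0 they differed by -0.10 and -0.17. Without the libraries numbered 0, 7 of the 37 were called higher and 1 lower (18.9% and 2.7%, against 3.92% and 4.95% of all genes). That fit has only replicates 1 and 2 of each group.

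The list of NRF2 targets, genes of antioxidant defence and NADPH supply, had mostly negative differences. Me1 alone of 31 was called, 26 of 31 differences were negative, 8 were non-overlapping and lower (6.68% of all genes were) and 1 higher, and the median was -0.16. By number it was -0.15, -0.17 and -0.17. Nqo1, a quinone reductase, was at 3.01, 2.85 and 2.87 in shRNA1 and 2.19, 2.23 and 1.79 in shRNA2 against 1.99, 1.36 and 1.74 in control, and the lines did not overlap; the difference was -0.84 (adjusted p = 0.149). Maff, a small Maf partner, differed by -0.56 (adjusted p = 0.0957) and Pgd, of the pentose phosphate pathway, by -0.33 (adjusted p = 0.163). Without the libraries numbered 0, 12 of the 31 were called lower (38.7%, against 4.95% of all genes) and 0 higher. That fit again holds only replicates 1 and 2 of each group. Other lists were also above the shares of all genes in that fit. Called lower were 21.2% of the actin, myosin and SRF-YAP list and 20% of the fatty acid synthesis list. Called higher were 28.6% of histone genes, and 19.2% of immediate early genes were called in each direction. Cytosolic ribosomal proteins and the BCL2 and caspase list had 0 calls.

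In the lipid lists the called genes were 1 of 21, 0 of 27, 1 of 20, 2 of 33 and 0 of 27, all lower, beside 0.455% of all genes. Of 21 peroxisomal fatty acid oxidation genes, Decr2 alone was called, and the list median was -0.03; Hsd17b4, the bifunctional enzyme of that pathway, differed by 0.31 (adjusted p = 0.192, 0.0448 with the block). None of 27 mitochondrial oxidation genes was called, by either fit (3 at an unadjusted p under 0.05), with the smallest p for Hadhb, a subunit of the trifunctional protein (difference -0.36, adjusted p = 0.182). Of 20 genes of fatty acid synthesis, Me1 was called, and Elovl6, a fatty acid elongase, differed by -0.51 (adjusted p = 0.0909, 0.0198 with the block). The 2 of 33 sterol genes called include Npc1, and that list's median was -0.05. Abca1, the cholesterol efflux pump, was at 5.93, 5.63 and 5.48 in shRNA1 and 5.13, 4.47 and 4.49 in shRNA2, with no overlap and a difference of -0.98 (adjusted p = 0.114, 0.00487 with the block). None of 27 genes of ferroptosis defence and lipid peroxidation was called (4 at an unadjusted p under 0.05), with a median of 0.00. Gclm, a subunit of glutamate-cysteine ligase, was at 6.11, 6.26 and 6.31 in shRNA1 and 5.91, 5.88 and 5.79 in shRNA2 (difference -0.36, adjusted p = 0.172).

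Matrix, integrin and adhesion genes had the lowest median of the 32 lists, -0.19 over 49 genes (-0.05, -0.25 and -0.13 by number). None was called (7 at an unadjusted p under 0.05), and 5 were called lower with the block (1.04% of all genes were): Mmp14, a membrane metalloproteinase, Col16a1, Hspg2, Mcam and Itgb3. Mmp14 was at 7.95, 7.83 and 7.91 in shRNA1 and 7.56, 7.47 and 7.51 in shRNA2, without overlap, at a difference of -0.38 (adjusted p = 0.0909, 0.026 with the block). Thrombospondin 1, Thbs1, was at 3.78, 5.19 and 5.16 in shRNA1 and 3.83, 3.54 and 3.75 in shRNA2, where shRNA1 replicate 0 lay among the shRNA2 values (difference -1.001, adjusted p = 0.3). Without the libraries numbered 0, 14 of 49 were called lower and 3 higher (28.6% and 6.12%, against 4.95% and 3.92% of all genes). The actin, myosin and SRF-YAP list had a median of -0.11 with 0 of 33 called (3 at an unadjusted p under 0.05).

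Among MAPK feedback genes, 0 of 22 were called (3 at an unadjusted p under 0.05) and 6 were non-overlapping, all lower (6.68% of all genes were). The transcription factors Etv4 and Etv5 had the smallest p-values, with Etv5 at 5.13, 5.23 and 5.22 in shRNA1 and 4.21, 4.27 and 4.25 in shRNA2 (difference -0.95, adjusted p = 0.178, 0.0495 with the block) and Etv4 at a difference of -1.42 (adjusted p = 0.151). The control libraries, which share in the estimate of the spread, had an SD of 0.60 for Etv5, against 0.057 in shRNA1 and 0.033 in shRNA2. Histone genes had a median of 0.15, but of -0.01, 0.37 and 0.13 by number, with 0 of 14 called, 5 at an unadjusted p under 0.05 and 6 non-overlapping, all higher (7.72% of all genes were); the linker histone gene H1f0 was at 8.669, 8.731 and 8.806 in shRNA1 and 8.996, 9.239 and 9.169 in shRNA2 (difference 0.40, adjusted p = 0.0924, 0.0213 with the block). Of 67 ribosome biogenesis factors 0 were called, 10 had an unadjusted p under 0.05, 13 were non-overlapping and lower and 1 higher (6.68% and 7.72% of all genes were), and the median was -0.09 (-0.04, -0.08 and -0.11 by number), with Nop2 at 6.76, 6.80 and 6.78 in shRNA1 and 6.56, 6.62 and 6.59 in shRNA2 (difference -0.19, adjusted p = 0.262).

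**Figure D5:**
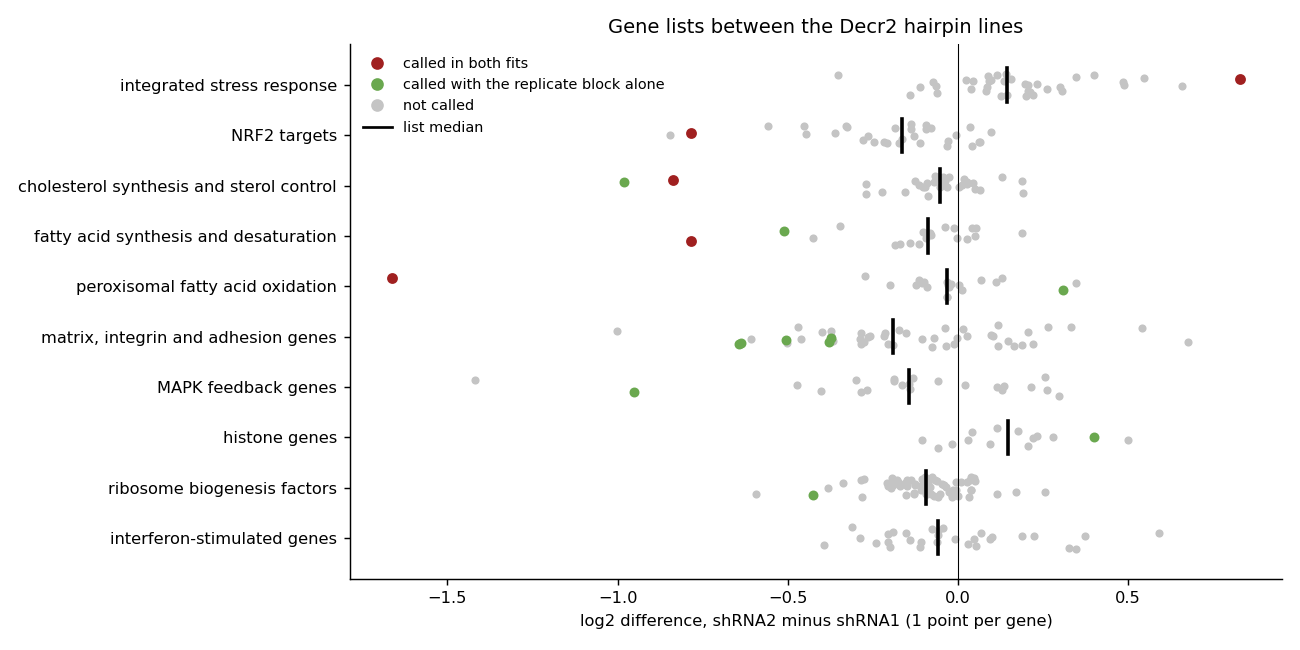
Log2 difference, shRNA2 minus shRNA1 (horizontal axis), of each measured gene of 10 lists (rows; vertical scatter within a row has no meaning), with a bar at the list median; 1 sterol gene is not drawn. Called genes are single points such as Ddit3 at 0.83 in the integrated stress response and Npc1 at -0.84 among sterol genes, and the NRF2 points lie mostly left of 0.

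Other lists had medians within 0.1 of 0. Single called members were Prim2 of 58 S phase genes, Cdkn2d of 29 p53 targets and growth brakes, Tmed2 of 55 COPI, COPII and p24 genes, Bcat1 of 32 amino acid and one-carbon enzymes, Nr4a1 of 26 immediate early genes and Npc1 of 77 lysosome and autophagy genes. In the order named, these lists held 7, 4, 9, 2, 4 and 6 genes with an unadjusted p under 0.05 in limma's test, beside 10% of all genes. None was called of 30 interferon-stimulated genes (median -0.06, 0 at an unadjusted p under 0.05), 19 genes of MHC class I presentation (median -0.03, 1 at that p), 22 NF-kB genes (-0.04, 2) or 22 plasma membrane amino acid transporters (0.09, 1). The same held for 39 endoplasmic reticulum chaperone and unfolded protein genes (median 0.00, 2 at that p), 36 cytosolic chaperones (0.00, 4), 28 BCL2 family and caspase genes (0.08, 2) and 58 G2 and M phase genes (0.04, 3). It also held for 37 melanocyte genes (median 0.03, 4 at that p), 51 glycolysis and hypoxia genes (0.01, 9), 45 proteasome subunits (-0.03, 1) and 17 RNA interference genes (0.03, 2). Of 79 cytosolic ribosomal protein genes 0 were called, 2 had an unadjusted p under 0.05 and 76 had negative differences, with a median of -0.09. That median was -0.27 in replicate number 0, 0.11 in number 1 and -0.10 in number 2, so the direction was not shared by the numbers. The 88 oxidative phosphorylation genes had medians of -0.28, 0.23 and -0.03 by number, and the 13 genes of the mitochondrial chromosome -0.47, 0.46 and -0.24; none of either was called, and 2 of the 88 had an unadjusted p under 0.05.

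By deposited value over the hairpin libraries, 23 of the 49 called genes lay above the median gene and 26 below it. All 49 were protein coding, as were 99.98% of the annotated genes. The median size of their differences was 0.78, against 0.10 for all genes, with the smallest at 0.45 and 12 at 1 or more. The larger size largely follows from a call made on these same differences. The median standard error over all genes was 0.12, and 0.10 above and 0.15 below the median level. The 49 called genes lay on 17 chromosomes. Of the 701 genes on chromosome 4, 6 were called, and 5 each of the 618 on chromosome 9 and the 889 on chromosome 11. None was called of the 579, 384 and 363 genes on chromosomes 8, 13 and 14. Over all genes 0.455% were called, and no test was made of these counts. Median differences by autosome ran from -0.01 on chromosome 9 to 0.03 on chromosome 13. Exons of 6 of the 49 overlapped those of another listed gene: Wdr92, Ddit3, Nit2, Npc1 and Ntn3, given above, and Fkbp10 with Nt5c3b on the opposite strand (difference 0.18, adjusted p = 0.442). The strand setting of the counting is not given in the sources used here.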

How the data were processed

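Messenger RNA of 9 B16.SIY libraries was sequenced, 3 per stable line. The deposited table of the authors holds 1 log2 expression value per gene and library. Per the file headers the authors also gave, for either Decr2 hairpin relative to control, a fold change, a t score from a moderated test and a p-value. No result here uses those scores or p-values, and the headed fold changes served only to tie columns to hairpins: those headed shRNA1 matched the columns assigned to shRNA1 within 0.05 in 99.95% of genes, and those headed shRNA2 matched the columns assigned to shRNA2 in 99.70%. Tools named in the submitters' processing notes are limma, kallisto and FastQC. Their settings, the build, the annotation and any low-value filter: not given in the sources used here. Genes that the table does not list were not analysed here. Of 10762 identifiers, 10759 matched a symbol. No per-library column was left without a sample.

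Group and replicate number came from the sample titles. A linear model was fitted to the log2 values of all 9 libraries with limma 3.58.1 in R 4.3.3 (intensity trend, 1 mean per group, no covariate), and the contrast shRNA2 minus shRNA1 was adjusted by the Benjamini-Hochberg method over 10762 genes. The procedure was tested on simulated data. Deviations from the group means of same-numbered libraries correlated at 0.126 to 0.644, all above 0.1, so the numbers were taken to pair the libraries, although no label says what a number marks. Libraries numbered 1 and 2 in different groups also correlated, at 0.128 to 0.531. The threshold of 0.1 therefore does not show that numbers 1 and 2 pair the libraries, and the blocked calls rest on that assumption. The members and gene lists were chosen with earlier results of these data known. Genes were named by a rule. It took the target, up to 12 called genes per direction above the median level, and 6 per direction from the blocked fit. It also took the 3 largest called differences each way at any level, and up to 3 genes per list. The remaining called genes, and Trib3, Atf4, Asns, Nqo1, Maff, Pgd, Hsd17b4, Elovl6, Abca1, Thbs1, Hspg2 and Mcam, were named after their values were seen. One called gene is not reported by name here, though it is counted in the totals. Positions are from GENCODE M21 (GRCm38), which may not be the annotation the authors used. Alternatives were another normalisation, a low-value filter, other variance settings, fewer libraries and the block.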

Additional observations from a re-analysis of the deposited data

How the results depend on the processing

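In the alternatives run gene by gene, no difference changed sign among the 49 called genes or the 56 others named by rule. For the 49 this was fixed in advance where libraries were left out, because their lines do not overlap. The block, the variance settings and the hairpin libraries alone leave the size of a difference unchanged, so no sign could change there. Among 12 genes named after their values were seen and 7 overlapping neighbours, none of them called, 6 changed sign. After leaving out 1 library, Atf4 ran from -0.10 to 0.31, Asns from -0.17 to 0.58, Mars from -0.19 to 0.12, Rmc1 from -0.0060 to 0.25, Tomm70a from -0.045 to 0.10 and Tbc1d24 from -0.078 to 0.22. Tomm70a was -0.0095 with quantile normalisation, and Tbc1d24 -0.15 without the libraries numbered 0. The count of 49 genes called between the lines became 201 with the replicate block, 6 from the hairpin libraries alone, 118 from those with the block, 955 without the libraries numbered 0, 12 with a size of at least 1 required, and 3 to 94 after leaving out 1 library. It stayed within 1.5 times (36 to 60) under the filter, which removes 13 of the 49 genes and kept the call of the others, median centring, quantile normalisation, no trend and the robust prior. In alternatives chosen after seeing the data, the 201 blocked calls became 663 without the libraries numbered 0. Leaving out 1 library, the block called 391, 102 and 116 genes without control replicate 0, 1 and 2, 354, 30 and 4 without those of shRNA1, and 23, 10 and 3 without those of shRNA2. The 1550 non-overlapping genes became 5755 without the libraries numbered 0 and 1997 to 3738 without 1 hairpin library, where fewer values have to be parted. Decr2 stayed at -1.66 with the hairpin libraries alone (adjusted p = 0.116) and ran from -1.84 to -1.49 after leaving out 1 library, with adjusted p over its alternatives from 0.00952 to 0.137. The cause of the other changes was not tested. Of 516 values of the 29 called genes named by rule, 218 missed the threshold, 179 of them after leaving out 1 library. Of 576 counts over the 32 lists, 434 equalled the main count or stayed within 1.5 times of it. Most lists held 0 called genes in the main fit, and a list that stayed at 0 is among the 434. The number therefore says little about stability. The read depth is unknown, so the precision of low values could not be set from counts.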
